A study of Mus musculus with 4 samples.

Results

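Luminal cells in G2 and mitosis were the 1982 cells, of 33268 in the 4 single-cell RNA libraries of mouse mammary organoids, in which 4 genes of the G2 and mitotic programme (Cenpf, Ccnb2, Cdc20 and Birc5) together summed to at least 300 CPM, the count of a gene scaled to the same total in every cell. A cell was used if it had at least 1000 genes, under 5% of its counts on mitochondrial genes and a top antibody tag at least 3 times the second, and it was called luminal if the basal keratin Krt14 and the estrogen-induced growth factor Areg were each under 300 CPM. They were set against the 14451 luminal cells of the same libraries in which the sum of the 4 genes stayed under 50 CPM, called low-sum cells here, while the 696, 391, 448 and 421 luminal cells between the limits (in WT, WT-HU, B2 and B2-HU, the libraries described below) were left out of that contrast. The 4 genes chose the cells, so their own levels are given as a description, and any gene that goes with them from cell to cell differs between the classes partly through that choice.

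The study asked how mammary epithelium with a germline truncating mutation in an allele of Brca2 responds to repeated replication stress. Its cultures were sampled at an early and a late passage, which the labels do not tell apart. Organoids were grown in Matrigel from mammary epithelial cells of virgin female Brca2mut/WT mice and of wild-type littermates, with or without hydroxyurea (HU), a drug that stalls DNA replication, then frozen, thawed, regrown briefly and dissociated for sequencing. The libraries were WT (wild type, untreated), WT-HU (wild type, HU), B2 (Brca2mut/WT, untreated) and B2-HU (Brca2mut/WT, HU). Each condition was thus 1 library, which the labels describe as 2 replicates, while the design text and the study's methods give other numbers of experiments and mice, so what a library or a pool within it stands for is not settled. Conditions were therefore not tested against each other, and intervals on shares (exact Clopper-Pearson) and CPM (exact Poisson) cover counting error only, at 95%.

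Members numbered 508 of 5245 luminal cells in WT, 417 of 4260 in WT-HU, 554 of 4656 in B2 and 503 of 4228 in B2-HU. The libraries held 302135155, 258821284, 243430259 and 258118001 gene counts (unique molecular identifiers, UMIs) in 9358, 8158, 8113 and 7639 cells in the same order, and pairs of libraries shared 16 to 30 cell barcodes. Every library also carried 4 antibody tags, and the key of tags to animals or passages was not given in the sources used here, so the tags are treated as unlabelled pools numbered 1 to 4. The pools did not contribute evenly. Pool 2 gave 20.7%, 30.0%, 44.2% and 55.3% of the members in WT, WT-HU, B2 and B2-HU but 6.29%, 20.02%, 26.3% and 25.7% of the low-sum cells, so the contrast of members with low-sum cells was also fitted with the pool within the library as the block, and that value is given where it changed a call. Cdc20-led cells, described below, were too few for such a fit. Members were also deeper than low-sum cells, with a median of 45187 against 27472 UMIs in WT, 42526 against 27631.5 in WT-HU, 48720.5 against 29408.5 in B2 and 49363 against 34645 in B2-HU. More than 6000 genes were detected in 58.8% to 71.4% of members and in 17.7% to 35.0% of low-sum cells.

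A dividing cell replicates its DNA in S phase, then passes through G2, in which cyclins of the A and B type load onto Cdk1, into mitosis, in which chromosomes condense, attach to the spindle through kinetochores and separate. Many genes of this late programme share a switch. Repressor complexes of the DREAM type keep these genes off in resting cells, and B-MYB with MuvB and then FOXM1 turn the genes on through short promoter elements, the CCAAT box bound by NF-Y and the CHR element. Exit from mitosis is driven by the anaphase-promoting complex (APC/C), which Cdc20 activates and which destroys cyclin B and securin. In the mammary gland the luminal layer holds hormone receptor-negative (HR-) progenitor and secretory cells and hormone receptor-positive (HR+) cells, and both can divide.

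The genes used for the choice act at different steps. Cenpf (chromosome 1, 189640606 to 189688086 on GRCm38) encodes a large kinetochore and nuclear matrix protein that builds up in G2. Ccnb2 (chromosome 9, 70407692 to 70421547) encodes cyclin B2, Cdc20 (chromosome 4, 118432901 to 118437352) the mitotic activator of the APC/C, and Birc5 (chromosome 11, 117849251 to 117855743) survivin, a subunit of the chromosomal passenger complex. The 180 bases before the RefSeq start of each gene (GRCm38.p6, printed 5′ to 3′ on the strand of the gene) are shown because the members were chosen on genes known to share promoter elements, together with Cdk1, the kinase that drives entry into mitosis. The windows are chr1:189688087-189688266 (Cenpf), chr9:70421555-70421734 (Ccnb2), chr4:118437344-118437523 (Cdc20) and chr10:69352913-69353092 (Cdk1), all on the minus strand, and chr11:117849057-117849236 (Birc5) on the plus strand. Capitals mark the letters TTTGAA (CHR), TTTAAA (a CHR variant), CCAAT, and TTTGGCGC, TTTCGCGC or TTTCCCGC (E2F), each searched on both strands, and no marked match overlaps another.
Cenpf: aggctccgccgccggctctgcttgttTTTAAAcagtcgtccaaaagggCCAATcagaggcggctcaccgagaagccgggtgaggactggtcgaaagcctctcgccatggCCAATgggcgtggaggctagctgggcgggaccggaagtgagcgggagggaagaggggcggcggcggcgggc
Ccnb2: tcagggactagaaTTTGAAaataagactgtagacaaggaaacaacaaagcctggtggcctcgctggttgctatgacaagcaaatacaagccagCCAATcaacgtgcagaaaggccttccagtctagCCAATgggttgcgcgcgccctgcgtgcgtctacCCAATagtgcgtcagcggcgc
Cdc20: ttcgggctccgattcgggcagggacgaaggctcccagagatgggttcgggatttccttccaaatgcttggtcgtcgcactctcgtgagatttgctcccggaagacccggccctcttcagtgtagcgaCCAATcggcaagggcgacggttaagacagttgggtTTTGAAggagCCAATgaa
Birc5: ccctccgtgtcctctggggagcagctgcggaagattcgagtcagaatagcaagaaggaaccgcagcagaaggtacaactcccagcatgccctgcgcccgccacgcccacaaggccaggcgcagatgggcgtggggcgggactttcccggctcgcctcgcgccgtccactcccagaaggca
Cdk1: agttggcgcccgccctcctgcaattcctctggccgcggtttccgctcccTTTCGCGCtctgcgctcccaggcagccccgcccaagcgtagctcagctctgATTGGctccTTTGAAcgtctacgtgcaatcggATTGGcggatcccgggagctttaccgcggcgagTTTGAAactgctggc
Ccnb2 carried CCAAT 87, 54 and 21 bases before its start and TTTGAA at 167. Cdc20 carried CCAAT at 53 and 8 and TTTGAA at 18. Cenpf had CCAAT at 132 and 71 and TTTAAA at 154, and Cdk1 had TTTGAA at 71 and 15, CCAAT on the other strand at 80 and 48, and the E2F letters at 131. None of these letters lay in the 180 bases of Birc5, which says only that they are not in this window. Over all 32851 windows of this length, 27.5% held CCAAT, 17.8% TTTGAA or TTTAAA, and 1.20% an E2F sequence. Among cyclins, Cdk1 and mitotic kinases, 13 of the 20 genes had a window, and CCAAT was in 11 of 13, a CHR sequence in 6 and an E2F sequence in 2. Some genes have more than 1 start, and the counts that follow are of windows. For kinesins, spindle and cytokinesis genes CCAAT was in 19 of 29 windows (26 genes), a CHR sequence in 13 and an E2F sequence in 3, while for DNA replication genes CCAAT was in 18 of 37 windows (31 genes), a CHR sequence in 4 and an E2F sequence in 6. Kinetochore genes had CCAAT in 18 of 32 windows, a CHR sequence in 8 and an E2F sequence in 1. Cholesterol synthesis genes, which are not mitotic, had CCAAT in 10 of 13 windows and a CHR sequence in 1, so a high share with CCAAT was not particular to mitotic lists. Matches of letters are a description of the sequence and not of binding.

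Among members, Cenpf was at 389 CPM in WT, 406 in WT-HU, 504 in B2 and 429 in B2-HU, against 1.16 to 1.77 in low-sum cells. Ccnb2 was at 195, 208, 221 and 212 CPM against 1.35 to 1.94, and Cdc20 at 169, 207, 181 and 177 CPM against 1.84 to 2.25. Birc5 was at 361, 436, 380 and 380 CPM against 2.63 to 3.79. All 4 genes had at least 1 UMI in 82.9%, 79.4%, 79.8% and 77.1% of the members, and 1, 8, 5 and 10 members had 2 rule UMIs or fewer. The member nearest the threshold had a sum of 300.2, 302, 300.3 and 304.8 CPM, the nearest luminal cell below it 297.8, 299.7, 299.976 and 299.991 CPM, and the highest member reached 8823 CPM, in B2. The limits on Krt14 and Areg left both genes alike in the classes, at a mean of 53.1 against 54.8 CPM for Krt14 and 10.3 against 9.83 CPM for Areg.

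**Figure D1:**
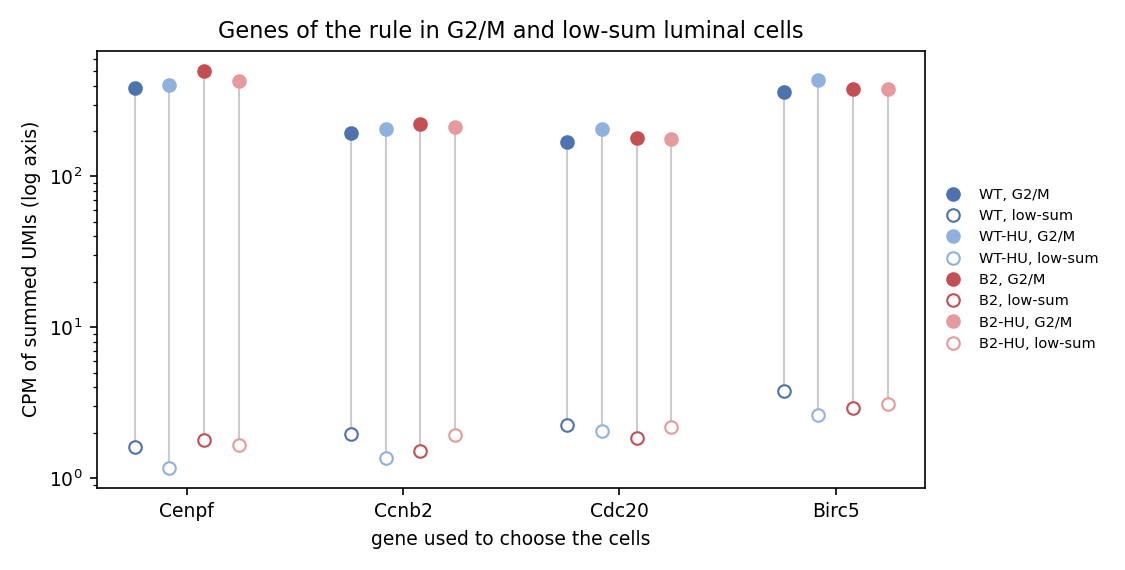
CPM (log axis) of the 4 genes that chose the cells, in the summed UMIs of G2/M luminal cells (filled) and low-sum luminal cells (open) of each library. Filled points lie between 169 and 504 CPM and open points between 1.16 and 3.79 CPM, a gap that the choice of cells sets.

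The name G2 and mitosis held for these cells only in part, since genes of DNA replication were high too. The 38 genes of the replication list summed to a median of 1662, 1897, 1514 and 1640 CPM per member in WT, WT-HU, B2 and B2-HU, against 311, 300, 309 and 319 CPM per low-sum cell. Of the members, 74.6%, 74.8%, 64.4% and 59.6% lay above the 95th percentile of the low-sum cells for this sum. As far as RNA levels can place cells, the rule thus took in cells with a replication programme as well as cells in G2 and mitosis. The luminal name held: Epcam, the epithelial adhesion molecule, was at 1829 ± 226 CPM in members (SD, n = 4 libraries), and the luminal keratins Krt8 and Krt18 at 1089 ± 82.5 and 1755 ± 190 CPM. Markers of other cells were low. The 10 immune markers summed to 0.381 to 0.984 CPM in members led by Cd52, with 5 of them (Ptprc, Lyz2, C1qa, Itgam and Tyrobp) at 0 in every library. The 11 fibroblast and endothelial markers summed to 4.86 to 7.87 CPM, led by Pdgfra and Dcn, with 2 (Lum and Cdh5) at 0. The 14 basal markers, led by Krt5, summed to 87.2 to 130.2 CPM in members and 186 to 231 CPM in low-sum cells.

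The share of luminal cells over the threshold was 9.69% (95% interval 8.90 to 10.5) in WT, 9.79% (8.91 to 10.7) in WT-HU, 11.9% (11.0 to 12.9) in B2 and 11.9% (10.9 to 12.9) in B2-HU. Within each library the pools were further apart than the libraries. In WT the share was 5.49%, 23.9%, 6.13% and 19.6% in pools 1 to 4, in WT-HU 7.82%, 13.7%, 6.44% and 19.1%, in B2 8.28%, 18.0%, 7.15% and 15.1%, and in B2-HU 8.01%, 21.4%, 6.07% and 13.5%. Pools 2 and 4 were above pools 1 and 3 in all 4 libraries. Leaving out pool 2 gave 8.39%, 8.73%, 9.37% and 7.69%, so without that pool B2-HU was the lowest of the libraries and not one of the highest. With every cell thinned to 10000 UMIs the shares were 10.3%, 10.4%, 12.5% and 12.3%, and with cells of at most 6000 genes 4.64%, 5.21%, 6.16% and 5.77%.

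**Figure D2:**
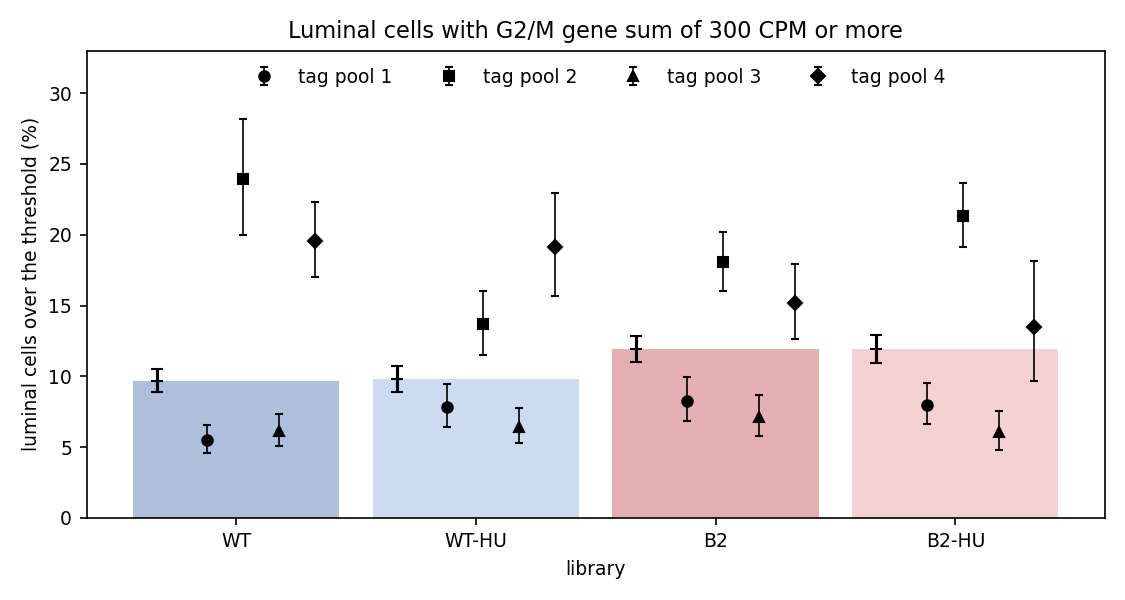
Percentage of luminal cells with a summed level of Cenpf, Ccnb2, Cdc20 and Birc5 of at least 300 CPM. Bars with the line at their left give each library and symbols the 4 antibody-tag pools in it, all with exact 95% intervals; pools 2 and 4 stand at 13.5% to 23.9% and pools 1 and 3 at 5.49% to 8.28%.

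Krt14-high cells, the basal counterpart under the same limits, passed the threshold more often in every library, in 16.5%, 22.05%, 14.9% and 18.4% of cells (642 cells in all). Areg-high cells, which the Areg limit left out of the luminal class, passed it in 14.3%, 13.3%, 10.0% and 14.1%. That was above the luminal share in WT, WT-HU and B2-HU and below it in B2. The luminal share was lower by a mean of 7.16 percentage points (SD 3.81), in 4 of 4 libraries, with p = 0.12 in an exact two-sided sign-flip permutation test, the smallest p that 4 pairs allow. After thinning to 10000 UMIs the difference was -7.54 points. Luminal and Krt14-high cells were spread differently over the pools. Within pools the luminal share was lower in 15 of 16, the other being pool 2 of WT (23.9% against 14.6%). The pools of a library were also given equal weight, an alternative chosen after seeing the data. The difference was then -0.0725 points in WT, -7.05 in WT-HU, -6.89 in B2 and -6.98 in B2-HU, with a mean of -5.25 points. Pool 2 held 89 Krt14-high cells in WT, 662 in WT-HU, 17 in B2 and 26 in B2-HU, so some of these shares rest on few cells. Pools 1, 3 and 4 were also taken alone, again chosen after seeing the data. The difference was then -3.20 points in WT, -5.09 in WT-HU, -3.44 in B2 and -8.73 in B2-HU, with a mean of -5.12.

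Between members and low-sum luminal cells, 4831 of 15177 genes tested rose (31.8%) and 4836 fell (31.9%) at an adjusted p below 0.05 (edgeR quasi-likelihood test on the UMIs summed per library and class, library as block). At a change of at least 2-fold, 928 genes rose (6.11%) and 932 fell (6.14%), and with the pool within the library as block, where 12450 genes were tested and 32.7% rose and 41.8% fell at any size, 654 rose and 371 fell by as much. The cells were chosen on 4 genes of the cycle and so many genes were called that a call alone says little of a gene, and the counts below describe the chosen cells. The median log2 fold change of all genes tested was -0.02. Of the genes called and still tested, 90.8% were called in the same direction with the pool block, 72.2% in cells of at most 6000 genes and 79.2% after thinning, while for genes called at 2-fold or more the shares were 99.8%, 86.0% and 94.8%.

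Cyclins, Cdk1 and mitotic kinases rose throughout. All 20 genes of the list rose at least 2-fold, with a median log2 fold change of 4.52. Ccna2, the cyclin that carries cells from S phase into G2, was at 116, 115, 119 and 111 CPM in members of WT, WT-HU, B2 and B2-HU and at 1.48 to 1.60 CPM in low-sum cells, a 71.2-fold rise (log2 6.15 ± 0.05 SE, edgeR adjusted p = 6.76e-12). The 4 libraries were close to each other in each class, and the classes did not overlap. Ccnb1, cyclin B1, was at 104, 126, 116 and 113 CPM against 1.45 to 1.73 (68.2-fold), and Cdk1, its kinase partner, at 271, 310, 284 and 262 CPM against 12.02 to 13.8 (21.0-fold). Cks2, the small Cdk1-binding subunit, was the most abundant gene of the list at 349 ± 18.9 CPM. Plk1 and Aurka, kinases of mitotic entry and spindle poles, rose 80.6-fold and 54.0-fold, and Cdc25c, the phosphatase that activates Cdk1, 43.6-fold. Wee1, which holds Cdk1 inactive, rose least of these, from 17.3 to 40.5 CPM (2.21-fold, log2 1.15 ± 0.06 SE).

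Of 12 B-MYB, FOXM1 and DREAM genes, factors that switch these genes, 11 rose and 1 fell, with a median log2 of 1.27. Foxm1 was at 21.4, 22.3, 22.4 and 22.5 CPM in members and 0.749 to 1.15 CPM in low-sum cells (23.0-fold), and Mybl2, encoding B-MYB, at 7.94 to 12.2 CPM against 0.804 to 1.10 (9.69-fold). Rbl2, which encodes the p130 subunit that DREAM uses to repress, was the gene that fell, from 17.0 to 13.8 CPM (log2 -0.39 ± 0.07 SE, adjusted p = 0.00162, edgeR). It was lower in members of all 4 libraries.

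Kinetochore and spindle genes rose as groups. All 32 kinetochore and spindle checkpoint genes rose, 31 of these at least 2-fold (median log2 4.44), and all 30 kinesin, spindle and cytokinesis genes rose, 29 at least 2-fold (median log2 5.49). Hmmr, a spindle-binding protein, had the largest fold among the tested genes named here, at 232, 235, 250 and 224 CPM in members against 0.990 to 1.52 CPM in low-sum cells (182-fold, log2 7.51 ± 0.10 SE). Nusap1 and Prc1, which bundle spindle and midzone microtubules, were at 199.963 ± 9.66 and 287 ± 14.1 CPM (SD, n = 4 libraries) against 1.40 and 4.66 CPM. Cenpe, a kinetochore motor, rose 74.2-fold, Bub1, a spindle checkpoint kinase, 74.0-fold, and Cenpa, the centromeric histone, 54.3-fold, while Zwint, a kinetochore linker, rose only from 41.9 to 54.7 CPM (1.23-fold). In this respect Zwint stood apart from the other 31 genes of its list.

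The APC/C list separated the enzyme from what it works with. Of 18 genes, 16 rose and 1 fell, but 7 rose at least 2-fold and the median log2 was 0.74. The large changes were in Ube2c, the ubiquitin-conjugating enzyme of the complex (511, 654, 595 and 528 CPM against 9.32 to 10.6, 54.9-fold), in Pttg1, which encodes securin (197, 205, 149 and 152 CPM against 3.70 to 4.78, 38.7-fold), and in Fbxo5 and Espl1, the APC/C inhibitor and separase (log2 5.37 and 5.47). The 8 Anapc subunits of the list and the core subunits Cdc16, Cdc23 and Cdc27 changed by log2 -0.09 to 0.83. Anapc13 fell, with log2 -0.09 ± 0.03 SE and an adjusted p of 0.039 (edgeR), a call lost without WT, B2 or B2-HU (adjusted p = 0.097 to 0.192), and Anapc2, at log2 -0.06, did not pass the test.

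Chromosome structure and microtubule genes showed the same pattern at lower fold and higher level. All 27 condensin, cohesin and chromatin genes rose (23 at least 2-fold, median log2 2.30). Top2a, the topoisomerase that untangles sister chromatids, was at 392, 404, 394 and 342 CPM in members against 6.65 to 8.32 CPM (46.8-fold). Mki67, the proliferation marker that coats mitotic chromosomes, rose 75.3-fold to 398 ± 31.3 CPM, and H2afz, a histone variant made throughout the cycle, rose from 397.5 to 2606 CPM (6.22-fold). Of 17 tubulin and microtubule regulator genes 14 rose (12 at least 2-fold, median log2 1.66). Tubb4b, a beta-tubulin, was at 996, 1156, 1181 and 1072 CPM against 212 to 290.0, and Stmn1, which destabilises microtubules, rose 9.79-fold, but Tuba1a, an alpha-tubulin, was at 60.9 CPM in members and 55.4 CPM in low-sum cells and did not pass the test.

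**Figure D3:**
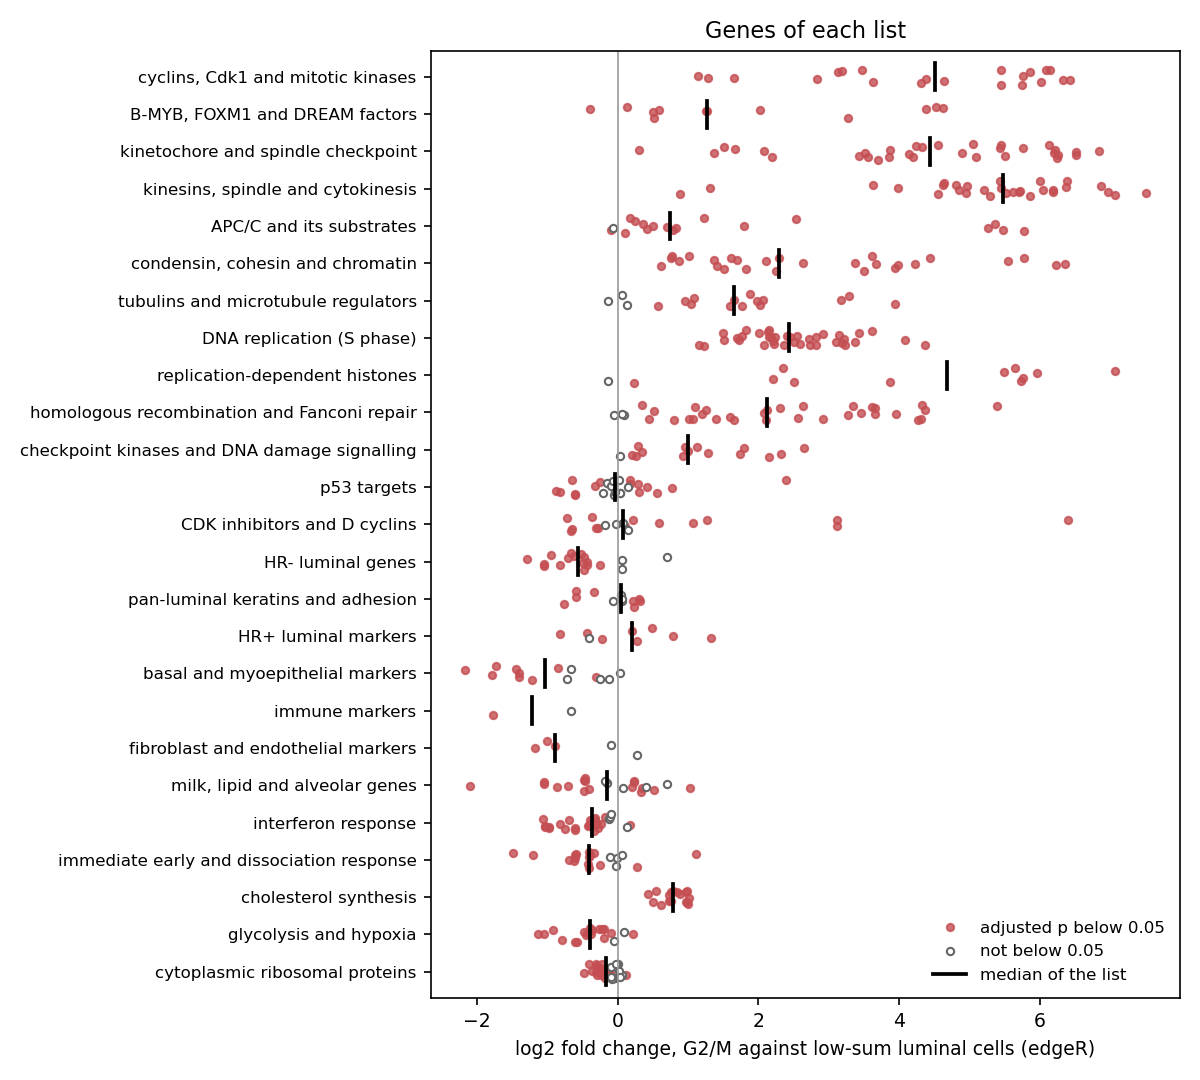
Log2 fold change of the genes of 25 lists between G2/M and low-sum luminal cells, with library as block. Each point is a gene, filled where the edgeR adjusted p was below 0.05, and the bar is the median of the list; the cyclin, kinetochore, kinesin, chromatin, replication and cholesterol lists lie wholly above 0.

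Replication genes were higher in members without exception in the list. All 38 rose at least 2-fold, with a median log2 of 2.43. Rrm2, a subunit of ribonucleotide reductase, which is the target of HU, was at 166, 185, 184 and 187 CPM in members against 6.96 to 11.5 CPM (20.7-fold). Pcna, the sliding clamp, rose 4.41-fold, Mcm5, of the replicative helicase, 6.62-fold, and Ccne1, the cyclin of S phase entry, 8.86-fold. Of 12 replication-dependent histone genes 11 rose (median log2 4.68). Hist1h1b was at 429, 429, 404 and 338 CPM against 5.96 to 8.12, and Hist1h4i, at 26.9 and 28.0 CPM, did not pass the test. Histone counts are uncertain, since their copies are near-identical and most of the transcripts lack the poly(A) tail that the kit primes from.

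Repair and checkpoint genes rose with replication. Of 34 homologous recombination and Fanconi genes tested, 31 rose (27 at least 2-fold, median log2 2.12), and of 15 checkpoint kinase and damage signalling genes 14 rose (7 at least 2-fold, median log2 0.997). Brca2 (chromosome 5, 150522630 to 150570329 on GRCm38), the gene mutated in the B2 libraries, was at 21.6 (95% interval 19.9 to 23.3), 23.2 (21.2 to 25.4), 15.5 (14.2 to 16.9) and 19.6 (18.1 to 21.2) CPM in members of WT, WT-HU, B2 and B2-HU. In low-sum cells it was at 4.43, 4.88, 3.90 and 4.25 CPM, so Brca2 rose 4.31-fold with the class (log2 2.11 ± 0.07 SE, edgeR adjusted p = 1.47e-08). Both wild-type libraries were above both Brca2mut/WT libraries in each class, with intervals in members that overlap between WT and B2-HU, and a 3′ count cannot tell the alleles apart. Brca1 rose 12.7-fold to 23.5 ± 0.992 CPM and Chek1, the replication checkpoint kinase, 6.27-fold. Trp53bp1, which steers breaks to end joining, was at 20.1 and 18.7 CPM and did not pass the test.

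Of 17 CDK inhibitors and D cyclins, 7 rose and 6 fell (median log2 0.08), near the 31.8% and 31.9% of all genes tested. Cdkn3, a phosphatase of Cdk1 and Cdk2 made late in the cycle, was at 99.1, 118, 111 and 106 CPM against 1.09 to 1.40 (84.3-fold), and Cdkn2d, the p19 inhibitor, at 75.1, 83.0, 86.1 and 72.7 CPM against 7.08 to 9.84 (8.68-fold). Rb1, the retinoblastoma gene, fell from 77.4 to 51.8 CPM (log2 -0.66 ± 0.05 SE). Of 25 p53 targets, 8 rose and 6 fell, and these counts and the median log2 of -0.04 were near those of all genes. Gtse1, a G2-phase regulator of p53, rose 5.24-fold, Bax, an apoptosis effector, 1.34-fold, and Trp53inp1 and Btg2, both growth-restraining p53 targets, fell by 0.65 and 0.60 on the log2 scale.

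Cdkn1a, which encodes the CDK inhibitor p21, depended on the pools. It was at 239, 243, 382 and 406 CPM in members and 196, 282, 283 and 310.2 CPM in low-sum cells of WT, WT-HU, B2 and B2-HU, and did not pass the test (log2 0.15, adjusted p = 0.182, edgeR). In pools 1 and 3 members were at 69.2 to 140.4 CPM and in pools 2 and 4 at 268 to 583 CPM, and with the pool as the block Cdkn1a fell (log2 -0.49, adjusted p = 3.31e-05, edgeR). Members were below low-sum cells in every pool of every library but pool 2 of B2 and B2-HU, where these stood at 583 against 490.0 and 562 against 492 CPM. For the p53 list as a whole (24 tested) the pool block gave 4 higher and 13 lower, beside 32.7% and 41.8% of all genes in that fit.

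Genes of the HR- luminal list were mostly lower in members. Of 14 HR- luminal genes 12 fell and none rose (median log2 -0.57), and the list summed to 56013, 43723, 52934 and 47905 CPM in members against 80057, 71882, 70259 and 66339 CPM in low-sum cells. Lcn2, lipocalin 2 and the most abundant gene of the list, was at 25216, 21201, 21285 and 20086 CPM against 36567, 34783, 31794 and 29127 CPM (log2 -0.67 ± 0.04 SE). Mfge8, a milk fat globule protein, was at 2211 ± 153 CPM against 4072 ± 491 (log2 -0.95), and Lalba, alpha-lactalbumin of milk, at 209, 295, 151 and 164 CPM against 323, 500.2, 288 and 485 (log2 -1.05). Elf5, the transcription factor of the HR- lineage, fell by 0.25 on the log2 scale with 1 of 4 libraries higher, a call lost without the library block. Tspan8, a surface tetraspanin, did not pass (log2 0.06, adjusted p = 0.56, edgeR) but fell with the pool block (log2 -0.29, adjusted p = 5.11e-04). Of the 12 pan-luminal genes 4 rose and 4 fell, near the background, Krt18 among the latter (log2 -0.34), with Epcam and Krt8 not past the test.

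Other lineage lists were mixed or low. Of 9 HR+ luminal markers tested 5 rose and 3 fell. Foxa1, a pioneer factor of HR+ cells, was at 18.9, 11.7, 10.7 and 10.5 CPM in members against 4.04 to 5.80 (2.51-fold), while Esr1, the estrogen receptor, was at 0.738 to 1.32 CPM and did not pass the test, so the defining marker of HR+ cells was near 0 in members. Of 14 basal markers 9 fell and none rose (median log2 -1.03), with Sparc, a matrix protein, at 15.6 against 65.4 CPM and Acta2, smooth muscle actin, at 15.7 against 38.1 CPM. Of the 2 immune markers tested 1 fell, and of the 5 fibroblast and endothelial markers tested 3 fell. Of 19 milk, lipid and alveolar genes tested 6 rose and 8 fell, near the 31.8% and 31.9% of all genes. Elovl6, a fatty acid elongase, rose 2.05-fold. The casein Csn1s1 fell (636 against 1073 CPM), a call lost without the library block. Thrsp, a lipogenic regulator of alveolar cells, was at 66.8, 171, 178 and 240 CPM against 61.7, 125, 140 and 193 (log2 0.23, adjusted p = 0.00478, edgeR), and with the pool block the difference was gone (adjusted p = 0.985).

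Interferon response genes were mostly lower in the summed counts of members than of low-sum cells. Of 23 tested, 18 fell and 1, Oas1a, rose (median log2 -0.36), and with the pool block all 23 fell, in a fit where 41.8% of all genes fell. Without the library block 8 fell and none rose, beside 23.5% and 25.6% of all genes. The call for Oas1a was lost without WT, B2 or B2-HU (adjusted p = 0.0674 to 0.106, edgeR). Summed over the list, members were at 3865, 2853, 5186 and 6047 CPM and low-sum cells at 4437, 4348, 5827 and 6234 CPM in WT, WT-HU, B2 and B2-HU. The median cell went the same way in WT, WT-HU and B2 but the other way in B2-HU, at 5445 CPM in members and 4781 CPM in low-sum cells. Ifit3, an antiviral RNA-binding protein, was at 134, 76.1, 239 and 288 CPM in members of WT, WT-HU, B2 and B2-HU. In low-sum cells it was at 272, 226, 391 and 430 CPM (log2 -1.03 ± 0.13 SE, edgeR adjusted p = 1.26e-04). Ifit3 was lower in members of each pool of each library, but the call was lost without the library block. Irf7, the master factor of the interferon response, was at 390.3, 365, 519 and 603 CPM against 594, 630, 706 and 732 (log2 -0.60), and Ifit1 at 109, 74.1, 135 and 158 CPM against 201, 183, 229 and 256 (log2 -0.98). Bcl2, the survival factor, fell by 0.59 on the log2 scale. Bst2, tetherin, was the most abundant gene of the list at 876, 714, 1231 and 1606 CPM and did not pass the test, but fell with the pool block (log2 -0.45).

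Within members, Ifit3 and Irf7 were highest in pool 2 of the Brca2mut/WT libraries. Ifit3 was at 358 and 417 CPM in pool 2 of B2 and B2-HU and at 64.8 to 118 CPM in their other pools, against 57.5 to 167 CPM over all pools of WT and WT-HU. Irf7 was at 648 and 772 CPM in that pool and at 195 to 405 CPM in the others of B2 and B2-HU. The same pool stood out among low-sum cells, at 690.1 and 900.4 CPM for Ifit3, and it held 44.2% and 55.3% of the members of these libraries, so the higher level in B2 and B2-HU members cannot be told apart from the share of pool 2. Whether pool 2 is an animal, a passage or another unit was not given in the sources used here.

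**Figure D4:**
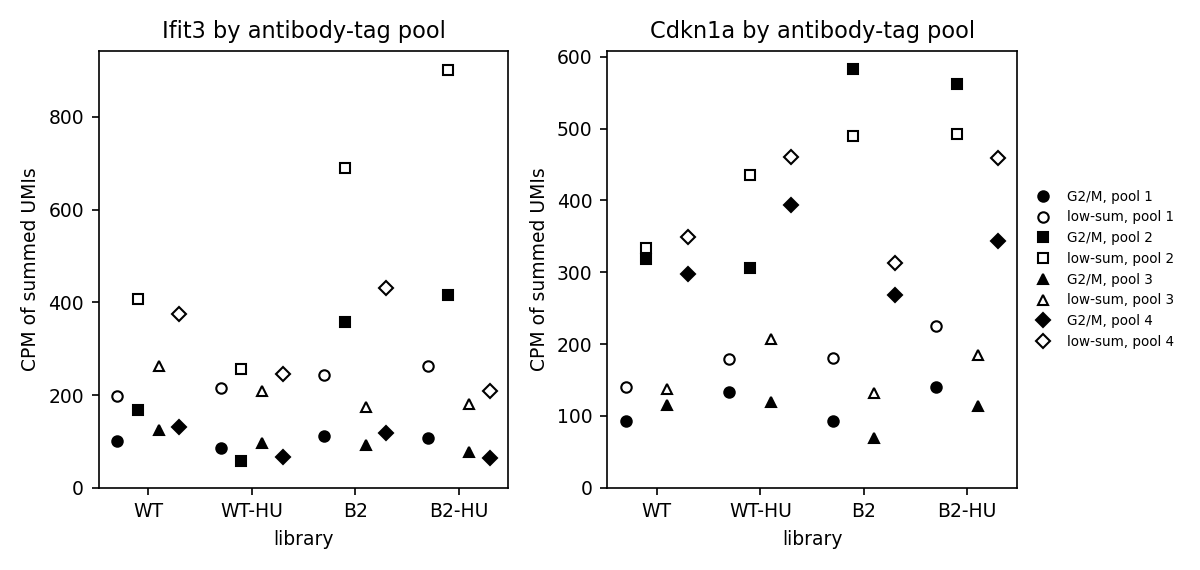
CPM of Ifit3 and Cdkn1a in the summed UMIs of each antibody-tag pool of each library, in G2/M (filled) and low-sum (open) luminal cells. For Ifit3 all 16 filled points lie below their open partner and pool 2 of B2 and B2-HU is the highest, and for Cdkn1a pools 2 and 4 lie above pools 1 and 3.

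Metabolic and stress lists moved in opposite directions. All 17 cholesterol synthesis genes rose (median log2 0.79, 2 at least 2-fold), for example Fdps, farnesyl diphosphate synthase (375, 367, 349.6 and 347 CPM against 159 to 178). Of 20 glycolysis and hypoxia genes 17 fell and 1 rose (median log2 -0.39). Vegfa, the angiogenic factor induced by low oxygen, was at 46.8, 29.9, 59.6 and 31.8 CPM against 102, 66.7, 123 and 59.2 (log2 -1.13), and Bnip3, a hypoxia-induced mitophagy receptor, fell by 1.05 on the log2 scale. Tpi1, triosephosphate isomerase, was the gene that rose (log2 0.22), a call lost without the library block. Immediate early and dissociation genes also fell, 13 of 19 against 2 that rose, such as Egr1 (301 against 439 CPM) and the heat-shock gene Hspa1a (8.83 against 23.4 CPM), while the chaperone Hsp90aa1 rose from 342 to 780.2 CPM. Of 30 cytoplasmic ribosomal protein genes 20 fell and 1 rose, but the changes were small (median log2 -0.17, Rpl10 for example at -0.48), and 10 fell without the library block (23.5% of all genes).

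Outside the lists, the largest rises among called genes of at least 20 CPM were in Neil3, a repair glycosylase of S and G2 phase (33.7 against 0.401 CPM, log2 6.30), Fam83d, a spindle protein (23.4 against 0.287 CPM, log2 6.25), Depdc1a, Mxd3, Pclaf, Shcbp1, Dlgap5, Sapcd2, Iqgap3 and Diaph3. Pclaf, the PCNA clamp-associated factor, had the highest level of these, at 377, 484, 385 and 387 CPM against 7.30 to 8.12 (49.8-fold), and Dlgap5, a spindle assembly factor, rose 46.4-fold. The largest falls were in Apoe, Spp1, Aebp1, Ramp1, Rflnb, Cxcl12, Cyp2d22, Tfcp2l1, Vwa1 and Sparcl1. Spp1, osteopontin, was at 209, 619.9, 254 and 183 CPM in members against 1131, 2389.6, 871 and 828 CPM (log2 -2.16 ± 0.09 SE), and Rflnb, a filamin regulator, at 50.9, 62.4, 55.3 and 84.2 CPM against 194 to 234 (log2 -1.87). Apoe, apolipoprotein E, fell from 25.1 to 5.98 CPM. These rises and falls were taken only from genes that went the same way in all 4 libraries, so that agreement was set by the choice.

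Members were not uniform, and the gene with most UMIs among the 4 divided the cells. Birc5 led in 217, 224, 190 and 222 members of WT, WT-HU, B2 and B2-HU, Cenpf in 174, 123, 233 and 168, Ccnb2 in 78, 33, 87 and 61, and Cdc20 in 17, 15, 11 and 21, with the rest tied. The groups also differed in depth. Median UMIs were 42884.5 to 52409.5 in Birc5-led, 47858 to 59602.5 in Cenpf-led, 30540 to 35789 in Ccnb2-led and 26553 to 36756 in Cdc20-led cells. The part of depth in what follows was not tested beyond cells of at most 6000 genes. The median sum of the 4 genes differed too. By library it was 1644 to 1908 CPM in Cenpf-led and 1863 to 2456 CPM in Cdc20-led cells. In Birc5-led cells it was 760 to 896 CPM and in Ccnb2-led cells 467 to 630 CPM. The part of this sum in what follows was not tested. Replication-list genes summed to 2892 to 3128 CPM in Birc5-led, 1877 to 2116 in Cenpf-led, 1043 to 2142 in Cdc20-led and 770.0 to 1170.3 CPM in Ccnb2-led cells. For kinesin and spindle genes the order was different, with 3438 to 3923 CPM in Cenpf-led, 2548 to 3395 in Cdc20-led, 1882.7 to 2134 in Birc5-led and 691 to 815 CPM in Ccnb2-led cells. Ccnb2-led cells had the lowest sums of the cyclin, kinetochore, kinesin and APC/C lists in every library. Top2a was at 27.3 CPM and Ccnb1 at 37.0 CPM in these cells, with Pttg1 at 212 CPM and Cdkn3 at 101 CPM. The groups were divided on the rule genes, so genes that go with a leading gene from cell to cell differ through that division, and Ccnb2-led cells are described without a test.

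**Figure D5:**
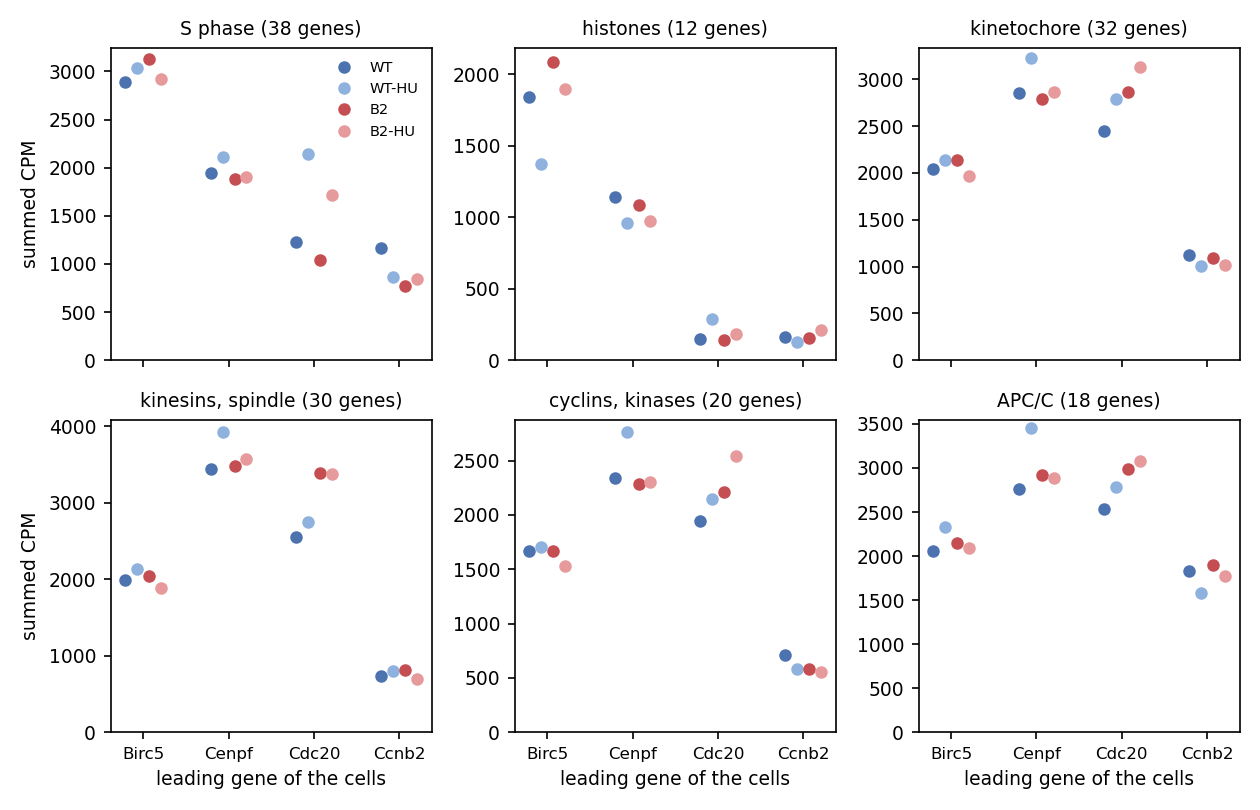
Summed CPM of the genes of 6 lists in members grouped by the gene with most UMIs among Birc5, Cenpf, Cdc20 and Ccnb2, a point per library. Replication and histone genes are highest in Birc5-led cells, kinesin genes in Cenpf-led and Cdc20-led cells, and in all 6 lists the Birc5-led and Cenpf-led points lie above the Ccnb2-led ones.

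Replication genes were higher in Birc5-led cells and spindle genes in Cenpf-led cells, in a comparison chosen after seeing the data. Of 12385 genes tested, 1813 were higher (14.6%) and 1712 lower (13.8%) in Birc5-led cells (edgeR, library as block). Of the 38 replication genes 36 were higher and 1, Dbf4, was lower (median log2 0.76, against -0.02 for all genes tested), and of 12 histone genes 11 were higher. Ccne1 was at 32.9, 48.9, 40.5 and 42.8 CPM in Birc5-led cells against 10.1, 13.9, 12.5 and 13.0 in Cenpf-led cells (log2 1.78 ± 0.06 SE, edgeR adjusted p = 1.63e-09), and Pcna at 211, 222, 227 and 220.3 CPM against 120.5, 127, 119 and 115 (log2 0.93). E2f1 and Cdc6, of the S phase programme and of origin licensing, were higher by log2 1.38 and 1.40, and outside the lists Ung, a uracil glycosylase, Rpa2, of the single-strand binding complex, and Orc6, of the origin recognition complex, by 1.24, 0.85 and 0.80.

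In the other direction, 29 of 30 kinesin and spindle genes, 21 of 32 kinetochore genes and 16 of 20 cyclin and kinase genes were lower in Birc5-led cells. Ube2c was at 361, 465, 376 and 341 CPM against 801, 1128, 854 and 834 in Cenpf-led cells (log2 -1.17 ± 0.03 SE), and Ccnb1 at 73.1, 89.4, 78.99 and 69.1 CPM against 155, 208, 161 and 177 (log2 -1.12). Prc1, Cenpe and Plk1 were lower by log2 -1.04, -1.16 and -0.94. Outside the lists Tnfaip8l1, Fam83d, Gas2l3 and Arl6ip1 were lower, the last at 322 against 683 CPM. These 9 genes were named for a large change or a high level, in a comparison that calls 13.8% of genes lower. In cells of at most 6000 genes, 27 of 37 replication genes were higher and 28 of 30 kinesin and spindle genes lower, beside 4.24% and 4.03% of all genes. With the pool as block, in 15 pools and chosen after seeing the data, 36 of 38 replication genes were higher and 29 of 30 kinesin and spindle genes lower, beside 17.9% and 16.6% of all genes. Brca2 itself was at 26.6, 26.3, 17.9 and 23.8 CPM in Birc5-led cells against 21.1, 23.1, 16.6 and 18.2 (log2 0.32, edgeR adjusted p = 0.00426), a call lost with DESeq2 (adjusted p = 0.0593) and in cells of at most 6000 genes (log2 0.04).

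Cdc20-led cells were few, and set against Cenpf-led cells 41 of 10796 genes were higher (0.38%) and 118 lower (1.09%, edgeR). Of 11 histone genes tested 9 were lower (median log2 -2.57). Top2a was at 65.0, 152, 60.6 and 76.7 CPM in Cdc20-led cells against 549, 619, 490.0 and 471 (log2 -2.61 ± 0.17 SE, edgeR adjusted p = 2.90e-06), and Wee1 at 15.6, 19.9, 12.1 and 10.7 CPM against 53.2, 56.5, 58.1 and 42.4 (log2 -1.80). Cdk1 and Aurkb were lower by log2 -1.31 and -2.25. Over 8 lists of cell-cycle and microtubule genes, without replication, histone and repair genes, 26 of 173 were lower and 6 higher. The 6 that were higher were Pttg1 (365 against 198 CPM), Cenpa (495 against 335 CPM), Tubb4b (1854 against 1261 CPM), Tubb2a (63.3 against 30.4 CPM), Cdkn3 (210 against 134 CPM) and Pimreg (90.3 against 59.7 CPM). Ccnb1, at 170.3 against 175 CPM, did not pass the test.

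Of the epithelial lists, 2 of 12 pan-luminal, 1 of 8 HR+ luminal and 1 of 9 basal genes were higher in Cdc20-led cells. None of 13 HR- luminal genes was higher, and no gene of these lists was lower. Over all genes tested 0.38% were higher and 1.09% lower. The lists with a called gene were thus above the share of all genes higher, though each by only 1 or 2 genes. The called genes are given here with Lgals7, named for its size. Ly6a, a surface antigen of the HR+ marker list, was at 263, 276, 16.98 and 169 CPM in Cdc20-led cells against 32.5, 61.3, 24.2 and 27.96 in Cenpf-led cells (log2 2.25 ± 0.30 SE, edgeR adjusted p = 0.00185, DESeq2 adjusted p = 0.0834). Krt17, a basal keratin, was at 12.7, 110.1, 2.43 and 12.5 CPM against 5.86, 15.4, 2.77 and 4.01 (log2 1.96). For both genes B2 went the other way. Cldn4, a tight junction protein, and the keratin Krt19 were higher in 4 of 4 libraries by log2 1.71 and 1.24. Lgals7, a galectin of stratified epithelium, was higher by log2 1.93 and was taken only from genes that went the same way in all 4 libraries. In WT-HU, secretory genes of the 15 Cdc20-led cells differed in both directions, with Trf, transferrin, at 1271 against 6777 CPM, Csn3, kappa-casein, at 5041 against 13279 CPM and Tspan8 at 5.41 against 89.6 CPM, but Csn1s1 at 1211 against 884 CPM, Ltf, lactoferrin, at 108 against 25.01 CPM and Thrsp at 491 against 112 CPM. Over the 4 libraries none of these 6 passed the test. The part of cell type in the mitotic differences was not tested. Without B2-HU 2 genes were higher and 13 lower, and with cells of at most 6000 genes none was higher and 4 were lower (583 at an unadjusted p below 0.05), so these calls rest on few cells. Without B2-HU the calls for Pttg1, Cdkn3, Cenpa, Tubb4b, Aurkb, Ly6a, Krt17, Cldn4 and Krt19 were lost (adjusted p = 0.0574 to 0.307, edgeR), that for Pimreg with any 1 of the 4 libraries left out (adjusted p = 0.0672 to 0.304), that for Tubb2a without WT-HU, B2 or B2-HU (adjusted p = 0.0826 to 0.16), those for Krt17 and Cldn4 without WT-HU (adjusted p = 0.315 and 0.0631), and Cdkn3, Cenpa and Tubb4b were lost without WT too (adjusted p = 0.0673 to 0.146). Cdkn3 and Cenpa were also lost without B2 (adjusted p = 0.128 and 0.0826, edgeR).

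Levels in members also differed between libraries, given here without a test. Ccna2 ranged from 111 to 119 CPM, Bub1 from 39.0 to 42.1 CPM and Ube2c from 511 to 654 CPM. Pttg1 was at 197 (192 to 202) and 205 (199 to 212) CPM in WT and WT-HU and 149 (144 to 153) and 152 (147 to 156) CPM in B2 and B2-HU, and in pool 2 of B2 and B2-HU it was at 103 and 114 CPM, against 169 to 243 CPM in the other pools of these libraries. Ccne1 was at 19.9 (18.3 to 21.6), 33.6 (31.1 to 36.2), 21.1 (19.6 to 22.8) and 26.6 (24.8 to 28.4) CPM, higher in the HU library of each genotype. By pool it was at 16.7 to 22.2 CPM in WT, 18.2 to 44.3 in WT-HU, 11.4 to 33.7 in B2 and 14.8 to 32.0 CPM in B2-HU, so the pools of treated and untreated libraries overlapped. Csf3, a granulocyte growth factor, rose with the class (2.85-fold) and was at 114, 66.5, 38.6 and 20.6 CPM in members against 12.6 to 23.0 CPM in low-sum cells. Pigr, the receptor that carries antibodies into milk, was at 233, 19.9, 71.2 and 69.6 CPM, with 485 CPM in pool 2 of WT. Saa1, an acute-phase protein, was at 136, 67.4, 16.1 and 24.97 CPM in members, and with Csf3, Saa2, Wfdc18 and Pigr it had the widest range over libraries of the class difference. The fall of Wfdc18, a whey acidic protein family member (log2 -0.43), was lost without WT-HU, B2 or B2-HU (adjusted p = 0.0733 to 0.0861, edgeR).

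The class difference was also set against the same difference in Krt14-high cells, as an interaction term. Of 14529 genes tested, 428 had a higher (2.95%) and 1260 a lower (8.67%) log2 difference in luminal cells (edgeR). In the cell-cycle lists 4 of 20 cyclin and kinase genes were higher and 1 lower, and 8 of 30 kinesin genes higher and 1 lower. Of 38 replication genes 10 were higher and 2 lower, of 32 kinetochore genes 8 and 1, and of 27 condensin, cohesin and chromatin genes 8 and 2. Most genes of these lists were thus not called, but the shares higher were above the 2.95% of all genes. None of 23 interferon genes was called, with a median log2 of -0.13 beside -0.07 for all genes tested. The log2 difference was lower in luminal cells for 20 of 30 ribosomal protein genes and 10 of 20 glycolysis genes, and for 6 of 14 basal and 4 of 14 HR- luminal genes. HR+ luminal markers went mostly the other way, with 5 of 9 higher and 2 lower (median log2 0.76), and in cells of at most 6000 genes 1 was higher and 1 lower, beside 2.28% and 4.71% of all genes.

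This fit had the library within each compartment as block and not the pool, and the compartments sat in different pools. Pool 2 held 1358 of 4656 luminal but 17 of 502 Krt14-high cells in B2, and 1302 of 4228 against 26 of 549 in B2-HU. With the pool as block, chosen after seeing the data, 8 pools had at least 20 cells in all 4 classes, and of 12218 genes tested 500 were higher (4.09%) and 152 lower (1.24%, edgeR). None of the 30 ribosomal protein genes was then called, and 4 of 20 glycolysis genes, 1 of 14 basal genes and 1 of 13 HR- luminal genes were lower. Of the HR+ luminal markers 1 of 9 was higher. Of the cell-cycle lists, 4 of 20 cyclin and kinase genes, 8 of 30 kinesin genes and 13 of 38 replication genes were higher and none lower. The larger number of lower than of higher log2 differences thus did not hold with the pool as block, and whether through the block or the fewer pools was not tested.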

How the data were processed

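The single cells captured with the 10x Chromium kit version 3 came from frozen organoids that had been grown again in Matrigel after thawing. The authors deposited raw UMI counts per cell for 32285 gene features and 4 antibody tags, made with Cell Ranger 6.0.2 on mm10 per the labels (the file headers name 6.1.1), and their notes list Seurat 4.0 and R 4.1.3. The replicates that the labels name share a library and could not be separated here, and 0 columns of other samples were left out.

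Counts were normalised per cell to CPM over gene features. Cells needed at least 1000 genes (no upper limit), under 5% mitochondrial UMIs and a top tag at least 3 times the second, which removes cells with a second tag; no doublet caller was run. UMIs were summed per library and class and tested with edgeR 4.0.16 (TMM, quasi-likelihood, library as block, Benjamini-Hochberg adjustment, threshold 0.05) in R 4.3.3. TMM-fitted folds can be smaller than ratios of CPM. The 4 rule genes, Krt14, Areg and mitochondrial genes were not tested. The contrasts were G2/M against low-sum luminal cells, Cdc20-led and Birc5-led against Cenpf-led cells, and the luminal against the Krt14-high difference. The labels do not say whether libraries come from separate cultures or animals. With the library as block, p-values thus measure the spread between 4 libraries that also differ in genotype and treatment. With the pool as block, p-values measure the spread between unlabelled tag pools nested in the same 4 libraries. Whether these pools are independent replicates is not known. The fits with the pool as block used tag pools with at least 20 cells in each class, 16 for members against low-sum cells, 15 for Birc5-led cells and 8 for the luminal against the Krt14-high difference, the last 2 added after seeing the data. The library block pairs the classes because both were taken from the same library.

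Genes were named as members of 25 lists (preferring called genes with a large change and a high level), the 10 largest rises and falls outside the lists at 20 CPM or more, 8 each way for Cdc20-led cells, 5 each way for the interaction, genes the study names (a few named genes are not reported here), and the 5 with the widest range over libraries at 50 CPM or more. The largest rises and falls outside the lists, in each comparison, were taken only from genes with the same sign in all 4 libraries. Members, lists and tests were chosen with earlier results of these data known. Alternatives were DESeq2 1.42.0, no count filter, no library block, other limits, thinning to 10000 UMIs and leaving out each library. Scripts were tested on simulated data. Promoters are RefSeq sequences of GRCm38.p6, and gene coordinates are from GENCODE M21. Python 3.11.15, numpy 2.4.6, scipy 1.17.1 and matplotlib 3.10.9 were used.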

Additional observations from a re-analysis of the deposited data

Results flagged for a closer look

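The G2/M difference itself differed between luminal and Krt14-high cells for 10 genes named by their size, each by an interaction term over the 4 libraries (edgeR quasi-likelihood test, Benjamini-Hochberg adjustment over 14529 genes). All 10 were taken only from genes whose luminal difference was the larger in all 4 libraries or the smaller in all 4. Dlgap5, a spindle assembly factor, was at 56.9 CPM in luminal G2/M cells and 1.16 CPM in low-sum cells. In the Krt14-high classes Dlgap5 was at 51.8 and 3.66 CPM, an interaction of 1.67 on the log2 scale (edgeR adjusted p = 1.11e-04). The levels of Dlgap5 in dividing cells were thus close, and the low-sum cells differed. Sprr1b, a cornified envelope protein, was near 0 in luminal cells, at 0.421 and 0.418 CPM, and at 17.5 and 89.8 CPM in Krt14-high cells. Its interaction of 2.16 (edgeR adjusted p = 7.83e-04) thus rests on the fall in Krt14-high cells and shows no change in luminal cells. Spink5, a protease inhibitor of keratinising epithelium, gave 2.38 (adjusted p = 0.00587), AW112010 gave 1.71 (adjusted p = 0.00318) and Wif1, a secreted WNT inhibitor, 1.64 (adjusted p = 0.0106).

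In the other direction, Serpinf1 gave -2.10 (edgeR adjusted p = 0.00108), Spon2 -1.92 (adjusted p = 2.10e-04) and Tnnt2 -1.82 (adjusted p = 0.00336). All were below 7 CPM in luminal cells and between 45.6 and 58.9 CPM in Krt14-high cells, so these terms set low luminal levels against higher ones. Saa2, an acute-phase protein, gave -2.06 (adjusted p = 0.0112) and Smr2 -1.71 (adjusted p = 0.00784), with Smr2 at 13.2 and 30.1 CPM in luminal and 3.21 and 2.98 CPM in Krt14-high cells. In cells of at most 6000 genes the interaction of Saa2 was 0.00814 (adjusted p = 0.999, edgeR), so the difference was gone, and it was also lost with DESeq2 (adjusted p = 0.128). In those cells the calls for Sprr1b (1.65, adjusted p = 0.719, edgeR) and Tnnt2 (-0.21, adjusted p = 0.747) were lost too. With the pool as block Dlgap5 (2.09), Spink5 (3.43), Wif1 (1.51) and Spon2 (-1.33) were still called, and the other 6 were not (adjusted p = 0.0761 to 0.261, edgeR). Without WT the value for Wif1 was 1.03 (adjusted p = 0.116) and without WT-HU that for Spink5 was 1.37 (adjusted p = 0.0935).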

How the results depend on the processing

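The counts of genes called between G2/M and low-sum luminal cells stayed within 1.5 times under each alternative, except that with the pool as block 371 and not 932 genes fell by at least 2-fold (654 and not 928 rose by as much). Without a library it ran from 4425 to 4839 genes higher and 4139 to 4488 lower. Without the library block 3890 genes were higher and 3567 lower, and of the genes called with the library as block 77.0% were still called in the same direction. Of 368 values of named genes with a library left out, 352 kept their direction and side of the threshold and none reversed, and of 828 under the other settings 784 did.

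For Cdc20-led against Cenpf-led cells the counts were 127 higher and 407 lower with no count filter and 0 and 4 in cells of at most 6000 genes, and with a library left out 2 to 61 higher and 13 to 154 lower. The lowest were without B2-HU, and without WT it was 18 and 46, and without B2 76 were lower. For Birc5-led cells they were 1109 and 653 with DESeq2, 381 and 362 in cells of at most 6000 genes, and 1342 to 1547 and 1194 to 1357 with a library left out. For the interaction they were 500 and 152 with the pool as block, 656 and 715 with DESeq2, 278 and 574 in cells of at most 6000 genes, and 207 to 321 and 491 to 1011 with a library left out (207 and 491 without B2, 220 and 501 without B2-HU, 717 lower without WT-HU).

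The share of luminal cells over the threshold in WT, WT-HU, B2 and B2-HU was 11.1%, 11.4%, 13.5% and 13.9% at 200 CPM, 7.86%, 8.24%, 9.79% and 9.39% at 500 CPM, and 4.64%, 5.21%, 6.16% and 5.77% in cells of at most 6000 genes. It was 12.4%, 10.6%, 13.3% and 13.8% without pool 1, 8.39%, 8.73%, 9.37% and 7.69% without pool 2, 11.6%, 11.9%, 13.7% and 14.4% without pool 3, and 7.62%, 8.63%, 11.3% and 11.8% without pool 4.

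The sign reversed with the pool as block for Ccnd1 (-0.23 log2), Cdkn1a (-0.49), Tspan8 (-0.29), Oas1a (-0.10) and Thrsp (-0.00184), and in cells of at most 6000 genes for Hist1h4i (0.23), Cdkn1a (-0.26), Krt8 (0.10), Oas1a (-0.038) and, in the interaction, Saa2 (0.00814), and in the Cdc20-led comparison Krt19 (-0.015, adjusted p = 0.991, edgeR). Without the library block the call for Ifit3 was lost (adjusted p = 0.0576, edgeR), as were those for Elf5, Csn1s1, Tpi1, Rps6, Oas1a, Anapc13, Thrsp, Pigr, Saa1 and Wfdc18. The causes were not tested. With 1 library per condition, depth limits the levels, and the spread between cultures is not known.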
